A study of Mus musculus with 60 samples.

Results

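The 9 genes described here encode zinc transporters of mouse: 8 importers of the SLC39 (ZIP) family, Slc39a1, Slc39a3, Slc39a4, Slc39a6, Slc39a7, Slc39a8, Slc39a10 and Slc39a14, and the exporter Slc30a1 of the SLC30 (ZnT) family. They were chosen by symbol from a table of 23127 genes, with their response to treatment in these libraries already known, and all 9 passed the filter on low counts that left 13744 genes for testing. RNA was measured in explants of mouse embryos of the ICR strain, cultured in N2B27 medium for 48 hours with EPZ005687 or with DMSO. EPZ005687 inhibits EZH2, the enzyme of Polycomb repressive complex 2 that methylates histone H3 at lysine 27, and DMSO is its solvent, given in equal volume. Extraembryonic (ExE), posterior embryonic (P) and anterior embryonic (A) tissue each gave 1 polyadenylated RNA library with EPZ005687 and 1 with DMSO, 6 libraries in all. For the RNA samples the labels state no embryonic stage and no pool size. The column names carry a code, the same in all EPZ005687 libraries and a different one in all DMSO libraries, and what it stands for cannot be told apart from treatment.

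ZIP proteins move zinc into the cytosol, from outside the cell or out of organelles, and ZnT proteins move it the other way. The transcription factor MTF1 senses free zinc and switches on metallothioneins, which bind the metal, and Slc30a1, which exports it. In the mouse conceptus the visceral endoderm, an absorptive epithelium that later lines the yolk sac, takes up maternal nutrients, and Slc39a4 is known for zinc uptake there and in the intestine. SLC39A8 and SLC39A14 carry manganese as well as zinc.

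Library totals were 1995240 (ExE), 2173284 (P) and 1000342 (A) counts with EPZ005687, and 5812535, 3413049 and 1780304 counts with DMSO. Levels are given in CPM, a gene's count over the library total times 1e+06, and compared only within a gene. For a gene with 0 counts the upper limit is taken as 3 counts, between 0.516 and 2.999 CPM depending on the library. In the ExE libraries the 16 visceral endoderm and yolk sac markers summed to 23548 CPM with EPZ005687 and 32042 CPM with DMSO, while the 11 trophoblast markers summed to 70.7 and 35.8 CPM, with Cdx2 at 0 in both. The ExE libraries thus carried markers of yolk sac endoderm. Of the 11 trophoblast markers, 10 were detected in ExE with EPZ005687 and 7 in ExE with DMSO, Plac1 at 32.6 and 29.9 CPM. Plac1 was higher still in P with EPZ005687, at 42.3 CPM. In P and A the trophoblast markers summed to 90.6 and 21.0 CPM with EPZ005687, and to 24.3 and 51.1 CPM with DMSO. Their sum was thus not highest in ExE in either arm. The sums of the 2 lists come from different genes and do not give the share of either tissue. The sum of the 10 neural and anterior markers was highest in A in each arm, although Zic1 was at 0 in both A libraries. It was 15.5, 102 and 513 CPM in ExE, P and A with EPZ005687, against 27.9, 115 and 2329 CPM with DMSO. Markers of streak, mesoderm and blood summed to 34718, 1409 and 251 CPM in ExE, P and A with EPZ005687, against 414, 8421 and 39.9 CPM with DMSO. In ExE with EPZ005687 the embryonic globins Hba-x, Hbb-bh1 and Hbb-y made up nearly all of that sum, at 23225, 6826 and 4517 CPM, against 225, 147 and 35.3 CPM in ExE with DMSO. In P the globins were the lower ones with EPZ005687, at 321, 929 and 54.8 CPM, against 5824, 1713 and 711 CPM with DMSO. In A with EPZ005687 most of the streak, mesoderm and blood sum was T, at 203 CPM, against 0 CPM in A with DMSO. Since each region and treatment has 1 library, the spread between repeat explants was not measured. The p-values below rest on the spread left among these 6 libraries after region and treatment are fitted. Unless a term is added for it, a response that differs by region counts in that spread. Intervals cover counting error only.

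Promoter sequences came from the RefSeq promoter table of build GRCm38.p6, which held 8 entries for 6 of the 9 genes. They are shown for the gene with the lowest treatment ratio, Slc39a1, and for 3 genes whose promoters hold the core of the metal response element, the motif bound by MTF1. Each line gives the 250 bases before the start of its promoter entry, 5′ to 3′ on the strand of the gene. That start can differ from the gene bounds given below. The Slc30a1 window ends at 191906780 and the gene begins at 191906697, so its core lies inside the gene bounds. The second Slc39a8 window lies wholly inside the gene, which begins at 135816882. The Slc39a1 and Slc39a3 windows also reach into the gene bounds. Capitals mark the core, TGCACNC or TGCGCNC, searched on both strands, on which its reverse complements read GNGTGCA and GNGCGCA. The windows are chr3:90247942-90248191 (plus strand) for Slc39a1, chr10:81037316-81037565 (minus strand) for Slc39a3, chr3:135825407-135825656 (plus strand) for the second Slc39a8 entry and chr1:191906531-191906780 (plus strand) for Slc30a1.
Slc39a1: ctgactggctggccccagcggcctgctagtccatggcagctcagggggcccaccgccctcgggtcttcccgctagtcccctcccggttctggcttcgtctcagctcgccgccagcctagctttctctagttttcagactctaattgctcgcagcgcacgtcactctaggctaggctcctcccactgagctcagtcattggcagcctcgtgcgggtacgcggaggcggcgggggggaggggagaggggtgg
Slc39a3: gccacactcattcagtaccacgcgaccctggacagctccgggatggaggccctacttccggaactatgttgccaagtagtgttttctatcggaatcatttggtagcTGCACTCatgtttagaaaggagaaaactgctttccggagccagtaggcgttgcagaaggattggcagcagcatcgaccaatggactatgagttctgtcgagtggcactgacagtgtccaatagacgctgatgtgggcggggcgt
Slc39a8, second entry: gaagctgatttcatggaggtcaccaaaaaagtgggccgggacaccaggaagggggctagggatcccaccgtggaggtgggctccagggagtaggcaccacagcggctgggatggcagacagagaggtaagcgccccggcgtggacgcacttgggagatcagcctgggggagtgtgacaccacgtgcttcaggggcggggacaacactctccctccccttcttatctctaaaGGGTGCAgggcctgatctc
Slc30a1: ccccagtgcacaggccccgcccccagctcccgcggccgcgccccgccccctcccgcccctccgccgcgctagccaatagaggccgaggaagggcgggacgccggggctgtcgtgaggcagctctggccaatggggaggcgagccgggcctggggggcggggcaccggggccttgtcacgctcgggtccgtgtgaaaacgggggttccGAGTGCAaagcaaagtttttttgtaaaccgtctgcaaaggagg

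The Slc39a1 window held 0 cores, 17 CpG dinucleotides and 66.4% G and C. The Slc30a1 window held 1 core, on the opposite strand, in a sequence with 25 CpG and 71.2% G and C. The Slc39a3 window held 1 core on the strand of the gene and 12 CpG, and the second Slc39a8 window held 1 core on the opposite strand and 9 CpG. The first Slc39a8 entry, both Slc39a10 entries and the Slc39a7 entry held 0 cores. Over all 32851 promoter windows of the same length, 21.4% held at least 1 core and 5.17% held 2 or more, so single matches are common. The median window held 6 CpG, with quartiles of 2 and 16. A match describes letters and not binding, and a window without one says nothing of the factor.

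Slc39a1, which encodes the plasma membrane importer ZIP1, was all but lost from the EPZ005687 libraries in every region. It had 92 counts in ExE, 34 in P and 30 in A with EPZ005687, against 15831 in ExE, 6962 in P and 2207 in A with DMSO. In CPM these were 46.1, 15.6 and 30.0 with EPZ005687, against 2724, 2040 and 1240 with DMSO. The highest EPZ005687 library thus lay far below the lowest DMSO library, and the arms averaged 30.6 ± 15.2 CPM with EPZ005687 and 2001 ± 743 CPM with DMSO (SD over 3 regions). The lowest of the 6 counts, 30 in the shallowest library, was well above the floor of 3 counts.

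Within regions, the ratio of Slc39a1 after TMM scaling (edgeR's correction for composition) was 94.96-fold lower with EPZ005687 in ExE, 145-fold lower in P and 55.3-fold lower in A. Those fold values carry no prior count. With a prior count of 2, the log2 ratios were -6.54 (95% interval of the counts -6.88 to -6.27), -7.11 (-7.71 to -6.69) and -5.74 (-6.36 to -5.27). The size of the difference varied among the regions by more than counting error between P and A, whose intervals do not overlap. Fitted over the 3 regions, the log2 fold change was -6.51 (SE 0.73), the second lowest among 13744 tested genes. The least changed region of Slc39a1 was then taken as a threshold. Of the 13744 tested genes, only Slc39a1 was lower by 5.74 or more on the log2 scale in all 3 regions. Slc39a1 meets that threshold by construction, and a thinly counted gene could not reach it. The fitted value of Slc39a1 was below 0 in every one of the 11 alternative settings run, between -6.86 and -6.09. Because the gene was selected on this contrast, these values describe it and carry no test.

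**Figure D1:**
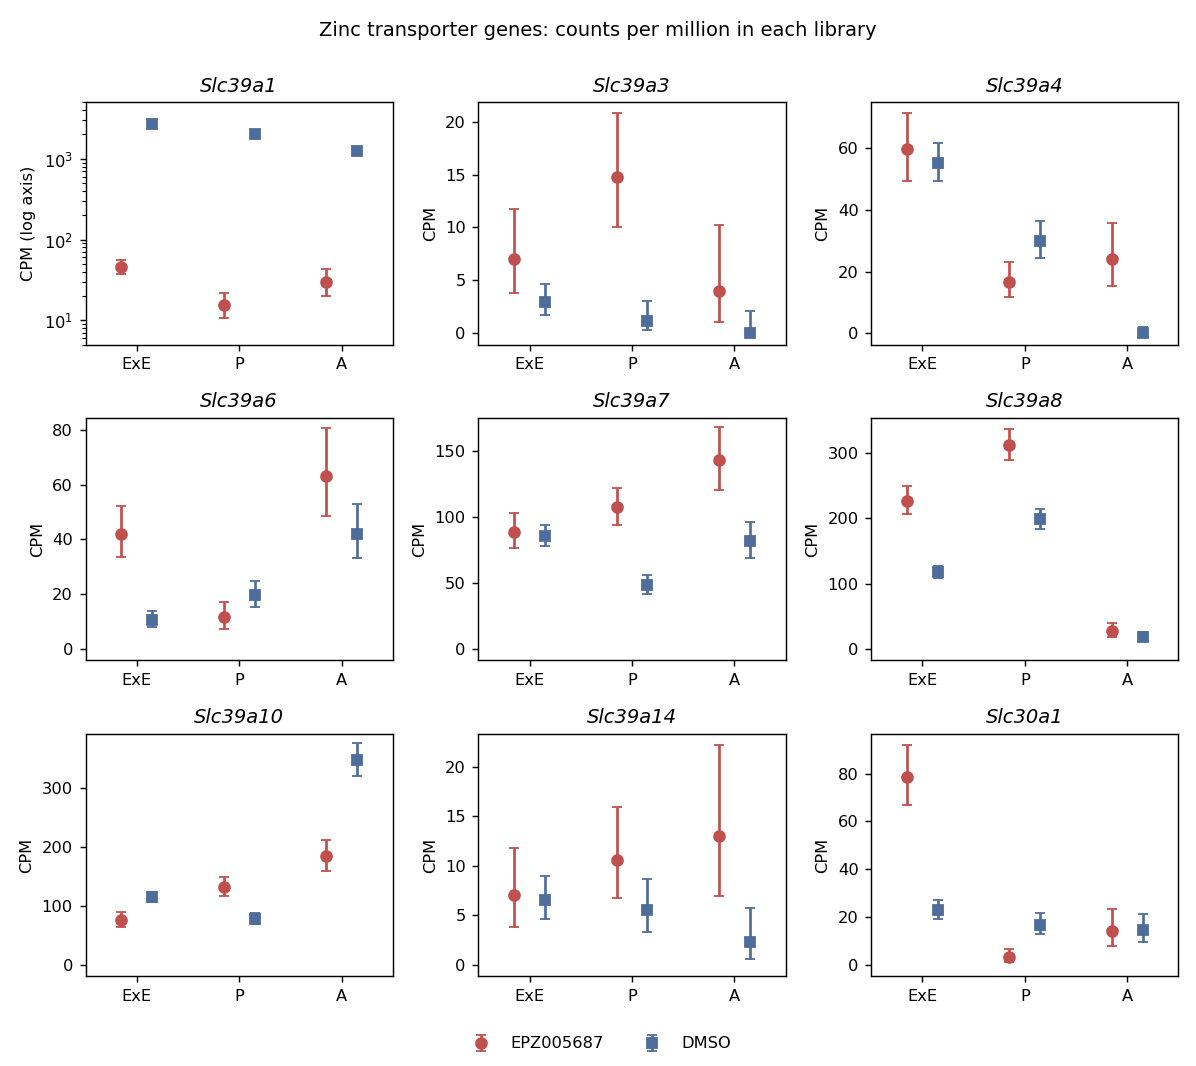
Levels of the 9 zinc transporter genes in CPM (y axis; a log axis for Slc39a1, linear from 0 for the others) in the ExE, P and A libraries with EPZ005687 (circles) and DMSO (squares). Each point is 1 library and bars are exact Poisson 95% intervals of its count; the Slc39a1 libraries with EPZ005687 lie between 15.6 and 46.1 CPM and those with DMSO between 1240 and 2724 CPM.

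Slc39a1 lies on chromosome 3, bases 90248190 to 90253613 (RefSeq, GRCm38.p6). Its near neighbour Crtc2, a CREB coactivator that begins 244 bases after it and was looked up for its position, had 11, 21 and 7 counts in ExE, P and A with EPZ005687, against 28, 5 and 9 with DMSO. Its fitted log2 fold change was 0.64, on 28 counts or fewer per library, so Crtc2 showed no fall like that of Slc39a1. The neighbour on the other side, Creb3l4, at a distance of 3607 bases, was below the filter. It had 1, 1 and 7 counts in ExE, P and A with EPZ005687, against 1, 9 and 21 with DMSO. In CPM it was lower with EPZ005687 in P (0.460 against 2.64) and in A (7.00 against 11.8), and not in ExE (0.501 against 0.172). These counts are too few to compare the arms.

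Of all 13744 tested genes, 210 (1.53%) passed an adjusted p of 0.05 between the arms, 203 of them lower with EPZ005687. Slc39a1 was the 1 zinc transporter among them, which follows from its selection on this contrast and is no evidence of its own. The arms did not overlap in CPM for 2854 tested genes (20.8%), among them 4 of the 9: Slc39a1 was lower with EPZ005687, and Slc39a3, Slc39a7 and Slc39a14 were higher. After TMM scaling 2415 tested genes (17.6%) did not overlap, and of the 9 only Slc39a1 was among them. The CPM order of the other 3 genes therefore depended on scaling. The median fitted log2 fold change was 0.25 for the 9 genes and 0.20 for all tested genes, and 6 of the 9 were above 0. These signs are not firm, since those of Slc39a4, Slc39a6, Slc39a7 and Slc30a1 turned when 1 library was left out. Scaling by library totals moved the median of all tested genes to 0.61.

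Signs of RNA quality moved with the arms. Rn45s, the ribosomal RNA precursor, took 0.521%, 6.54% and 1.44% of counts in ExE, P and A with EPZ005687, against 0.0853%, 0.0538% and 0.109% with DMSO. The 77 ribosomal protein genes took 4.52%, 14.0% and 5.60% with EPZ005687, against 2.29%, 3.23% and 2.94% with DMSO. Between 18524 and 19576 genes were detected with EPZ005687, and between 14754 and 17747 with DMSO, although in each region the EPZ005687 total was the smaller. Their part in the Slc39a1 result was not tested. In such bulk samples fewer cells of a type and less RNA per cell cannot be told apart.

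**Figure D2:**
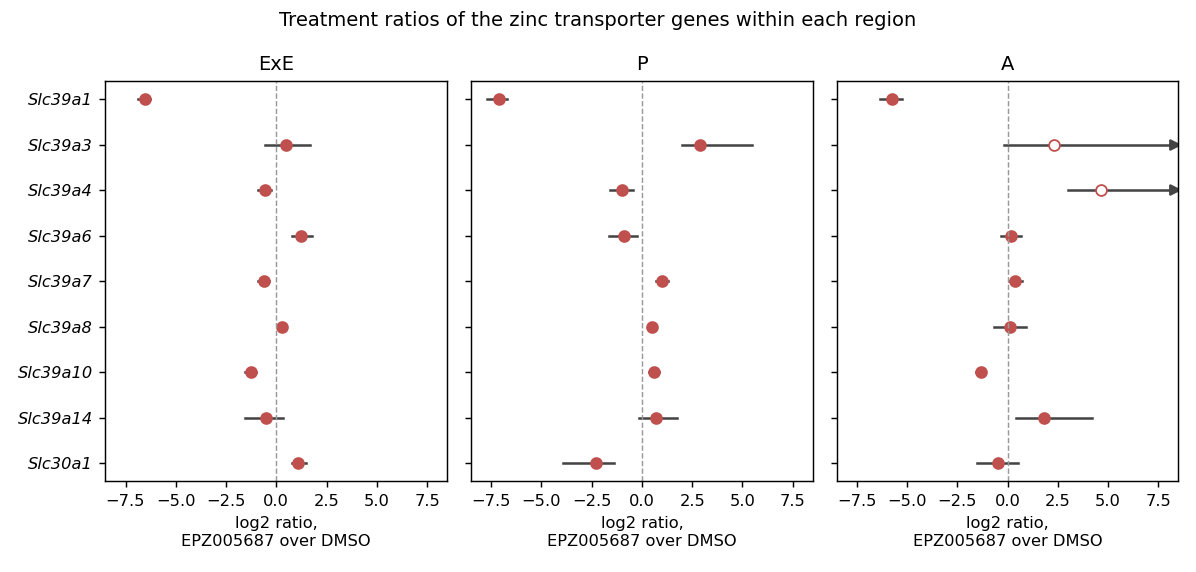
Log2 ratio of TMM-scaled CPM, EPZ005687 over DMSO (x axis), for the 9 genes (rows) within ExE, P and A (panels). Points are 1 library over 1 library and bars are 95% conditional binomial intervals of the counts; open points with an arrow have 0 counts with DMSO and no upper limit. Slc39a1 lies between -7.11 and -5.74 in the 3 panels.

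The other 2 plasma membrane importers of the early ZIP numbering differed from Slc39a1 in direction or by region. Slc39a3, which encodes ZIP3 (chromosome 10, 81028540 to 81037338), had 14, 32 and 4 counts in ExE, P and A with EPZ005687, against 17, 4 and 0 with DMSO. In CPM this was 7.02, 14.7 and 3.999 with EPZ005687, against 2.92, 1.17 and 0 with DMSO. With no prior count, Slc39a3 was 11.3-fold higher with EPZ005687 in P (interval log2 2.01 to 5.46). With a prior count of 2 that log2 ratio was 2.90. In A Slc39a3 was at least 1.77-fold higher against a floor of 3 counts in the DMSO library, while the 2-sided interval reached below 0. In ExE the interval, -0.55 to 1.69, held 0. Slc39a3 is a thinly counted gene, with 10 or more counts in 3 of 6 libraries.

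Slc39a4 encodes ZIP4, the uptake importer of intestine and visceral endoderm (chromosome 15, 76612383 to 76618506). It had 119, 36 and 24 counts in ExE, P and A with EPZ005687, against 321, 102 and 0 with DMSO. In CPM these were 59.6, 16.6 and 24.0 with EPZ005687, against 55.2, 29.9 and 0 with DMSO, where 0 of 1780304 counts allows up to 1.69 CPM. The A library with DMSO stood alone without the transcript, and in each arm the ExE library was the highest. Slc39a4 was at least 10.6-fold higher in A with EPZ005687, against a floor of 3 counts in the DMSO library. That bound leaves out the counting error of the 24 counts, and the 2-sided interval of the ratio reached down to log2 3.002. In P it was lower (log2 -0.97, interval -1.59 to -0.44), and in ExE also (-0.57, -0.89 to -0.27), although library totals turned the ExE ratio to 0.11. The same A library with DMSO was at 0 for 5 of the 16 visceral endoderm markers (Apoa1, Apom, Amn, Hnf4a and Foxa2). The 16 markers summed to 4002 CPM in A with EPZ005687 and 466 CPM in A with DMSO. Afp alone held 2896 CPM of the first sum and 5.06 CPM of the second. Lrp2 went the other way, at 137 CPM in A with EPZ005687 and 337 CPM in A with DMSO, most of the second sum. The part of endoderm in the Slc39a4 difference was not tested.

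Slc39a6 and Slc39a10 encode ZIP6 and ZIP10, importers of the LIV-1 branch of the family that can form a complex with each other. Slc39a6 (chromosome 18, 24579881 to 24603817) had 84, 25 and 63 counts in ExE, P and A with EPZ005687, against 62, 67 and 75 with DMSO, or 42.1, 11.5 and 63.0 CPM against 10.7, 19.6 and 42.1 CPM. Its ratio was higher in ExE (log2 1.25, interval 0.81 to 1.79), lower in P (-0.88, -1.65 to -0.24) and near 0 in A (0.16, -0.35 to 0.66). Slc39a10 (chromosome 1, 46807544 to 46925776) had 152, 287 and 184 counts in ExE, P and A with EPZ005687, against 665, 267 and 619 with DMSO, or 76.2, 132 and 184 CPM against 114, 78.2 and 348 CPM. Its ratio ran the other way from that of Slc39a6 in ExE (-1.26, -1.54 to -1.02) and in P (0.60, 0.36 to 0.85). In A Slc39a10 was 2.53-fold lower with EPZ005687 (-1.33, -1.58 to -1.10). The 2 partners thus had opposite directions in ExE and in P, and neither had 1 direction in all 3 regions.

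Slc39a7 encodes ZIP7, which releases zinc from the endoplasmic reticulum and Golgi into the cytosol (chromosome 17, 34028266 to 34031690). It had 177, 233 and 143 counts in ExE, P and A with EPZ005687, against 498, 165 and 145 with DMSO. In CPM these were 88.7, 107 and 143 with EPZ005687, against 85.7, 48.3 and 81.4 with DMSO. The arms did not overlap in CPM, but by a narrow margin, since ExE with EPZ005687 exceeded ExE with DMSO by less than their counting error. After TMM scaling the ratio was higher in P (log2 0.99, interval 0.71 to 1.30) and in A (0.39, 0.05 to 0.74), and lower in ExE (-0.63, -0.89 to -0.38). Library totals turned the ExE ratio to 0.050.

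Slc39a8 and Slc39a14 encode ZIP8 and ZIP14, which carry manganese as well as zinc. Slc39a8 (chromosome 3, 135816882 to 135888572) had 453, 679 and 27 counts in ExE, P and A with EPZ005687, against 683, 678 and 33 with DMSO. The treatment ratios were small beside the differences between regions: 0.26 in ExE (interval 0.09 to 0.44), 0.50 in P (0.35 to 0.66) and 0.12 in A (-0.67 to 0.90). With library totals the ExE ratio was 0.95, outside its interval. Slc39a14 (chromosome 14, 70303467 to 70351452) had 14, 23 and 13 counts in ExE, P and A with EPZ005687, against 38, 19 and 4 with DMSO. Only its A ratio had an interval off 0 (log2 1.802, 0.42 to 4.19), and it rests on 13 counts against 4.

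Slc30a1 encodes ZnT1, the zinc exporter of the plasma membrane (chromosome 1, 191906697 to 191913248), whose promoter with 1 metal response element core is printed above. It had 157, 7 and 14 counts in ExE, P and A with EPZ005687, against 132, 57 and 26 with DMSO. In CPM these were 78.7, 3.22 and 14.0 with EPZ005687, against 22.7, 16.7 and 14.6 with DMSO. The DMSO libraries lay close together, while the EPZ005687 libraries held both the highest and the lowest value. With no prior count, Slc30a1 was 2.16-fold higher with EPZ005687 in ExE and 5.75-fold lower in P. With a prior count of 2 the log2 ratios were 1.09 (interval of the counts 0.76 to 1.45) and -2.27 (-3.90 to -1.39). In A the interval, -1.53 to 0.51, held 0. The ExE library with EPZ005687 is also the one with the highest embryonic globins, and of the 12 streak, mesoderm and blood markers 9 were detected there and T, Mesp1 and Tbx6 were at 0. Their part in the Slc30a1 value was not tested.

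Whether treatment acted differently in ExE than in the embryonic regions was asked with an interaction term in the edgeR fit. It called 7 of 13744 tested genes (0.0509%) and none of the 9, each of which had an adjusted p of 1, with 0 of the 9 under an unadjusted p of 0.05. DESeq2 called 16 genes and limma-voom 6 in this comparison, again with none of the 9. Slc30a1 had a difference of 2.58 (SE 2.01) between its log2 effect in ExE and that in A and P, and Slc39a3 one of -3.34 (SE 3.67). The SEs of the 9 genes were 1.35 to 3.67, in a fit with 1 residual degree of freedom.

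The regions were then compared over both arms. For P versus A, 0 of 13744 tested genes (0%) passed an adjusted p of 0.05 in edgeR, 744 (5.41%) had an unadjusted p under 0.05, and DESeq2 called 180 and limma-voom 23. Slc39a8 was the gene among the 9 with the largest difference and the only one with an unadjusted p under 0.05. With EPZ005687 it had 312 CPM in P, against 26.99 in A, and with DMSO 199 CPM in P, against 18.5 in A. Both P libraries were above both A libraries, by 15.1-fold with EPZ005687 and 11.6-fold with DMSO, with no prior count. With a prior count of 2 the log2 ratios were 3.87 (interval of the counts 3.37 to 4.53) and 3.49 (3.04 to 4.09). The fitted log2 fold change was 3.73 (SE 0.65, adjusted p = 0.14 in edgeR), the tenth smallest p of all tested genes. DESeq2 gave an adjusted p of 2.6e-05 and limma-voom 0.056, and over the 11 alternatives it ran between 2.6e-05 and 0.80. The edgeR call was reached without the P DMSO library (0.0010), the ExE DMSO library (0.0057) or the ExE EPZ005687 library (0.040), and with no filter (0.0013).

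The ExE libraries also stood above A for Slc39a8, at 227 CPM with EPZ005687 and 118 CPM with DMSO. These were 8.61-fold and 7.80-fold differences after scaling. ExE was lower than P in both arms (log2 -0.81, interval -0.99 to -0.64, with EPZ005687, and -0.57, -0.73 to -0.42, with DMSO). The order P, ExE, A was thus the same in both arms. The summed visceral endoderm and yolk sac markers, all 16 detected in the ExE and P libraries, were at 23548, 13816 and 4002 CPM in ExE, P and A with EPZ005687, and at 32042, 12134 and 466 CPM with DMSO. Their part in the Slc39a8 difference was not tested. The annotated gene 4933401H06Rik overlaps Slc39a8, and without a stated use of strand their reads cannot be told apart; the same holds for 1700034H15Rik and Slc30a1.

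**Figure D3:**
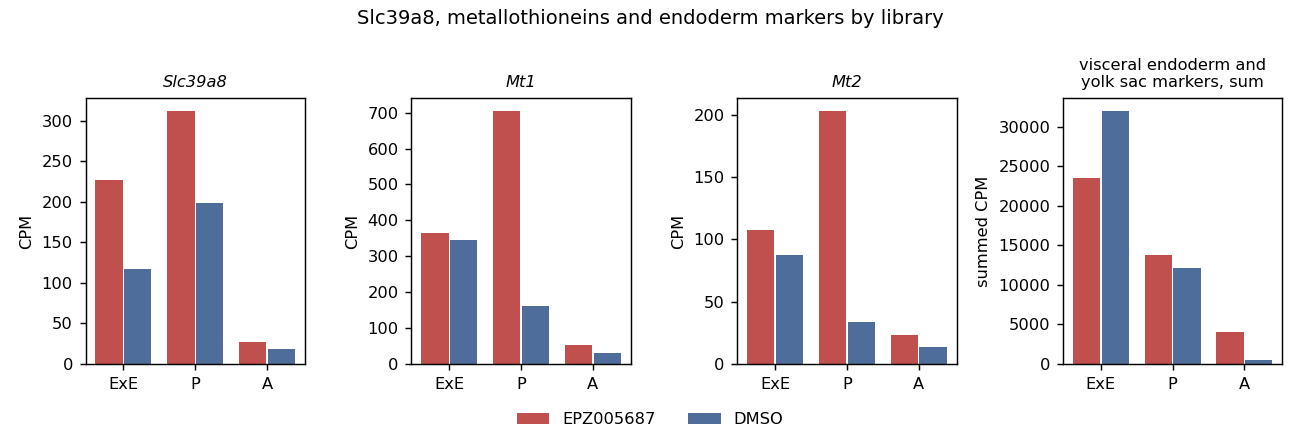
CPM of Slc39a8, Mt1 and Mt2, and the summed CPM of 16 visceral endoderm and yolk sac markers (y axes, from 0), in the ExE, P and A libraries (x axis) with EPZ005687 (left bar) and DMSO (right bar). Each bar is 1 library; A is the lowest region in all 4 panels and both arms.

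The other 8 genes had no unadjusted p under 0.05 for P versus A. Slc39a6 was lower in P in both arms, at 11.5 CPM against 63.0 in A with EPZ005687, and at 19.6 CPM against 42.1 in A with DMSO. Its fitted log2 fold change was -1.41 (SE 0.90, adjusted p = 0.93 in edgeR). Slc39a4 had 1.78 (SE 1.47, adjusted p = 0.93), a value that rests on the A libraries: it was 9.45 without A EPZ005687, with an adjusted p of 0.029, and -0.04 without A DMSO. Slc39a10 had -0.96 (SE 0.69), with 78.2 CPM in P and 348 CPM in A under DMSO but an interval that held 0 under EPZ005687 (-0.36 to 0.18). The remaining genes ranged between -0.37 (Slc30a1) and 2.46 (Slc39a3, SE 2.09).

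In the contrast of ExE against both embryonic regions together, edgeR again called 0 of 13744 tested genes (0%), with 883 (6.42%) at an unadjusted p under 0.05, while DESeq2 called 242 and limma-voom 35, none of them among the 9. Of the 9 fitted values 7 were above 0, and their median was 0.94 against 0.03 for all tested genes. Slc30a1 had the largest, 2.13 (SE 0.93, adjusted p = 0.75), followed by Slc39a4 at 2.08 (SE 1.06, adjusted p = 0.83) and Slc39a3 at 1.49 (SE 1.79). Slc39a8 had 1.17 (SE 0.49, adjusted p = 0.73) and Slc39a1 0.94 (SE 0.60). Slc30a1 and Slc39a8 had unadjusted p-values of 0.042 and 0.035. Slc39a4 was called only without the A EPZ005687 library, at 5.997 with an adjusted p of 0.0085.

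Slc39a1 also differed among regions within the DMSO arm, in the order ExE, P, A. Its ExE to P ratio there was 1.51-fold and its P to A ratio 1.79-fold, with intervals of 0.56 to 0.64 and 0.77 to 0.91 on the log2 scale. With EPZ005687 the ExE library was again the highest, 2.31-fold above P, and P and A could not be separated (interval -1.30 to 0.21). Slc39a7 showed no fitted difference by region beyond its SE, at 0.07 (SE 0.57) for ExE and -0.28 (SE 0.66) for P versus A. Within the arms its regions did differ after TMM scaling, in opposite directions. Its ExE to P log2 ratio was 0.996 (interval 0.75 to 1.27) with DMSO and -0.62 (-0.92 to -0.34) with EPZ005687. Its ExE to A log2 ratio was 0.37 (0.10 to 0.65) with DMSO and -0.65 (-0.98 to -0.33) with EPZ005687. The DMSO value depended on scaling. In CPM, ExE had 85.7 (95% interval of the count 78.3 to 93.5) and A had 81.4 (68.7 to 95.8).

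**Figure D4:**
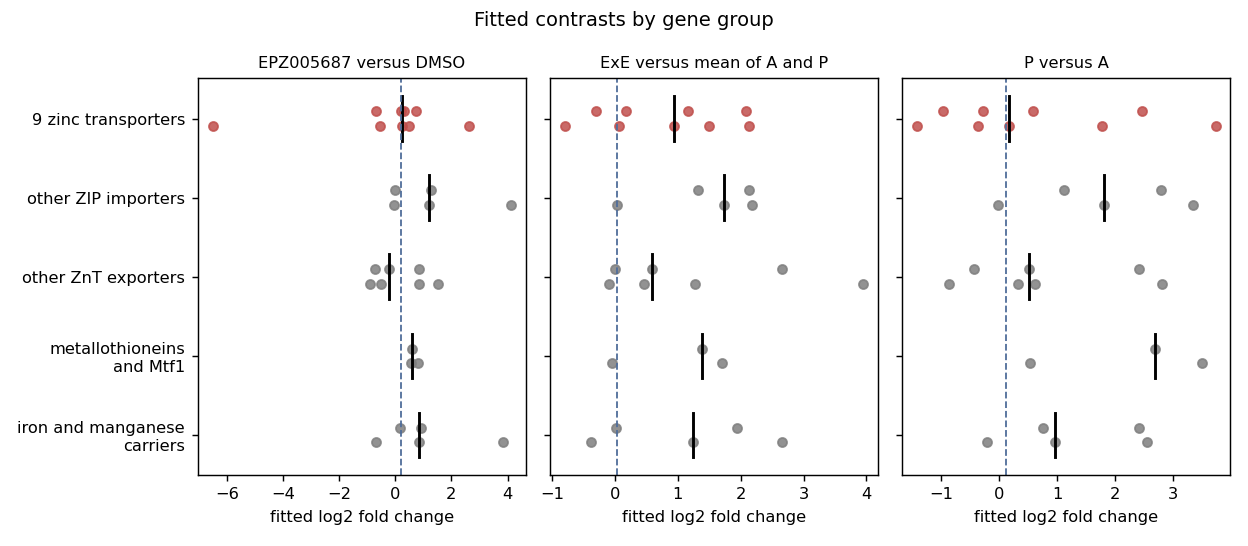
Fitted log2 fold changes (x axes) of the 9 zinc transporter genes and of 4 related gene lists (rows) in 3 contrasts (panels). Each point is 1 tested gene, black ticks are list medians, and the dashed line is the median of all 13744 tested genes; Slc39a1 is the point at -6.51 in the treatment panel.

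Related genes of zinc and metal handling were set beside the 9. The list of other ZIP importers had 5 of 6 members tested, that of other ZnT exporters 7 of 9, that of metallothioneins with Mtf1 3 of 5, and that of iron and manganese carriers 5 of 5. In edgeR 0 members of these 4 lists passed the adjusted threshold in any of the 4 comparisons, beside 1.53% of all tested genes between treatments, 0.0509% in the interaction and 0% in both region contrasts. Lists this short would mostly hold no called gene at such shares, so the count says nothing particular about them. Between treatments their medians were 1.19, -0.22, 0.61 and 0.85 in that order, beside 0.20 for all tested genes. Among the exporters Slc30a7 and Slc30a5, which load zinc into the Golgi, had -0.22 and -0.71, Slc30a4, of vesicles, had -0.92, and Slc30a9 had 0.83. Among the other importers Slc39a9 had 1.19, Slc39a13 -0.04, Slc39a11 1.26 and Slc39a5 -0.02. None of these approached the -6.51 of Slc39a1, which was selected on this contrast. The named importers were too thinly counted to show such a fall. In ExE, P and A with DMSO, Slc39a9 had 105, 40 and 0 counts and Slc39a13 had 46, 23 and 12. The comparison therefore does not set Slc39a1 apart from them.

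The metallothioneins, like Slc39a8, were lowest in A in both arms. Mt1 had 364, 706 and 54.0 CPM in ExE, P and A with EPZ005687, against 345, 162 and 29.2 CPM with DMSO. In A it was lowest in both arms, and its highest library was P with EPZ005687 but ExE with DMSO. Its fitted P versus A log2 fold change was 3.50 (SE 0.77, adjusted p = 0.28 in edgeR), and that of Mt2 was 2.69 (SE 0.83, adjusted p = 0.59). Mtf1, the zinc sensor, had 37.1, 37.7 and 10.0 CPM in ExE, P and A with EPZ005687, against 9.29, 11.7 and 21.3 CPM with DMSO. Between treatments Mt1 had 0.61 (SE 0.60) and Mt2 0.79 (SE 0.67), each about as large as its error. Of the metal carriers, the iron exporter gene Slc40a1 had 21.6, 25.3 and 14.0 CPM in ExE, P and A with EPZ005687, against 99.6, 49.8 and 0.562 CPM with DMSO. Tfrc, the transferrin receptor, had 520, 291 and 260 CPM with EPZ005687, against 78.6, 474 and 280 CPM with DMSO. Slc11a2, another iron importer, had 0.93 (SE 0.97), and Slc30a10, a manganese exporter, 0.85.

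Genes whose pattern over the 6 libraries was most like that of each transporter were ranked by Pearson's r of log2 TMM-scaled CPM among tested genes with a mean CPM of 20 or more. All points share their libraries, so these values describe them only. Nearest to Slc39a1 were Kdsr, Ddhd2, Sfxn5, Kdm5b and Kdelr2, with r between 0.995 and 0.997, and 417 of 6604 genes searched had an r over 0.9. Kdelr2, the receptor that returns proteins to the endoplasmic reticulum, had 130, 90.2 and 112 CPM in ExE, P and A with EPZ005687, against 6817, 3971 and 2858 CPM with DMSO. Kdsr, an enzyme of sphingolipid synthesis, had 44.6, 24.8 and 48.0 CPM with EPZ005687, against 319, 297 and 258 CPM with DMSO. The nearest gene to Slc39a8 was the maternally expressed noncoding RNA Rian (r = 0.992), to Slc39a4 Zhx1 (0.999), to Slc39a7 Luzp1 (0.969) and to Slc30a1 Mkrn1 (0.9803). Grpel1 was nearest to Slc39a3 (0.994), Ildr2 to Slc39a6 (0.989), Zfp397 to Slc39a10 (0.993) and Fam204a to Slc39a14 (0.992). Among the 9 themselves, r over the 6 libraries ran between -0.83 (Slc39a4 and Slc39a10) and 0.81 (Slc39a3 and Slc39a14), and Slc39a1 reached 0.35 at most, with Slc30a1.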

How the data were processed

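Whole-number read counts per gene symbol and library, not normalized, were used as the authors deposited them. Per the submitters' processing notes, build mm10, BWA, TopHat2 2.0.9 and CASAVA 1.8 were used. The counter is not given in the sources used here, nor are its annotation and strand setting. Of 60 samples, the 6 RNA libraries were analysed and 54 ChIP, input and bisulfite samples were not analysed here. Entries that carry dates in place of symbols (27, holding 0.162% to 0.961% of a library's counts) were left out. Coordinates and promoters came from RefSeq (GRCm38.p6).

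A gene needed 10 counts in 2 libraries or more to be tested, which was done with edgeR 4.0.16 (R 4.3.3), by the quasi-likelihood test after TMM scaling, with region and treatment as additive terms (2 residual degrees of freedom). A fit with an added treatment term in ExE (1 residual degree of freedom) gave the interaction. Adjusted p-values are Benjamini-Hochberg values over all 13744 tested genes. SE is the log2 fold change over the square root of F. Each variance is shrunk toward a trend over all genes. Log2 ratios of single libraries used TMM-scaled CPM with a prior count of 2, while fold values and intervals used no prior count. The fits were tested on simulated data. Alternatives were RLE scaling, library totals, no filter, a prior count of 0.5, DESeq2 1.42.0, limma-voom 3.58.1 and leaving out each library.

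The 9 genes and all lists were chosen with earlier results of these data known. Named were the 9 genes, up to 4 tested genes of highest mean CPM in each related list, and the genes nearest in pattern, 5 for Slc39a1 and 1 for each other; the neighbours of Slc39a1 were chosen after values were seen.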

Additional observations from a re-analysis of the deposited data

How the results depend on the processing

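No paired analysis was possible because the RNA libraries carry no replicate number; the arms were compared within region, since region is a term of the reported fit. The treatment contrast called 210 genes, against 215 with RLE scaling, 118 with library totals, 349 with no filter, 572 with DESeq2, 398 with limma-voom and 103 to 330 with 1 library left out (lowest without ExE EPZ005687, highest without P DMSO). In each of these 1 zinc transporter was called, Slc39a1, which was selected on this contrast, so the repeated call adds no support. ExE versus A and P called 0 genes, against 210 with no filter, 242 with DESeq2, 35 with limma-voom and 0 to 388 with 1 library left out, with 0 to 1 zinc transporters. P versus A called 0 genes, against 140 with no filter, 180 with DESeq2, 23 with limma-voom and 0 to 230 with 1 library left out; zinc transporters called were 1 with no filter, 1 with DESeq2 and 0 to 1 with 1 library left out. The interaction called 7 genes, against 0 with library totals and 16 with DESeq2, and could not be fitted with 1 library left out.

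Directions turned in these cases, and the cause was not tested. None of the fitted values among them had passed the threshold in the reported fit. Between treatments, with 1 library left out, Slc39a4 ran between -0.77 and 1.83, Slc39a6 between -0.36 and 0.77, Slc39a7 between -0.0921 and 0.73 and Slc30a1 between -1.46 and 0.40, and limma-voom gave -0.38 for Slc39a4 and 0.22 for Slc30a1. With library totals Slc39a1 had -0.0343 in P versus A and 0.32 in the interaction, and Slc39a8 0.35 in the interaction. The ExE treatment ratios of Slc39a4, Slc39a7 and Slc39a14 turned with library totals to 0.11, 0.050 and 0.092. With TMM scaling the intervals of Slc39a4 (-0.89 to -0.27) and Slc39a7 (-0.89 to -0.38) lay below 0, and that of Slc39a14 (-1.58 to 0.33) held 0. Another 7 treatment ratios kept their sign with library totals but left their intervals. In ExE these were Slc39a1 (-5.86), Slc39a6 (1.91), Slc39a8 (0.95), Slc39a10 (-0.58) and Slc30a1 (1.76). In A they were Slc39a7 (0.81) and Slc39a10 (-0.92). The printed intervals therefore do not cover the choice of scaling. With limma-voom Slc39a1 had 0.0073 in the interaction. With 1 library left out, ExE versus A and P ran between -0.28 and 3.06 for Slc39a3, -1.24 and 0.45 for Slc39a6, -0.65 and 0.65 for Slc39a7, and -0.92 and 1.02 for Slc39a14. P versus A ran between -0.39 and 0.69 for Slc39a1, -0.0383 and 9.45 for Slc39a4 (the highest with an adjusted p of 0.029), -0.93 and 0.17 for Slc39a7, -0.22 and 1.77 for Slc39a14, and -2.24 and 0.64 for Slc30a1. A library left out leaves its region with 1 library, which is assumed to vary like the others. Depth limits Slc39a3 and Slc39a14 most, which had 38 counts or fewer in every library.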
